A study of Mus musculus with 6 samples.

Results

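The genes described here are 10 transcriptional targets of ERK signalling that in turn restrain or report it: the phosphatases Dusp1, Dusp4, Dusp5 and Dusp6, the Sprouty genes Spry1, Spry2 and Spry4, the Sprouty-related Spred1, and the PEA3-type ETS factors Etv4 and Etv5. They were chosen by gene symbol, and all 10 were found among the 15973 protein-coding genes of the deposited comparison. All 10 passed the filter on low counts, which left 12572 genes for testing.

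The libraries come from 4T1-T VM cells, a single sub-clone of the mouse mammary carcinoma line 4T1 that was studied for vasculogenic mimicry, the formation of vessel-like channels by tumor cells. Every culture was treated alike: seeded at 40% confluency in RPMI with 10% FBS, starved of serum overnight in Opti-MEM with 0.3% BSA, given acetylated LDL (acLDL) carrying Alexa-488 at 10 ug/mL for 4 h, washed, and returned to complete growth medium for 1 h. Cells were then sorted on fluorescence, and the 25% of cells that had taken up the most acLDL (acLDL-high) were compared with the 25% that had taken up the least (acLDL-low). The series describes repeats on 3 separate occasions. Replicates 1, 2 and 3 are taken here as those occasions, which the labels do not state. So read, there was 1 library of each population per occasion. There was no unsorted or unlabelled control. Serum starvation and the return to growth medium, which the labels place before the sort, are shared by all 6 libraries.

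ERK is the last kinase of the RAS, RAF and MEK cascade, which carries signals from growth factor receptors to the nucleus. Its own target genes include the brakes on the cascade: dual-specificity phosphatases of the Dusp family remove the activating phosphates from MAP kinases, while Sprouty and Spred proteins act upstream, between the receptor and RAF. Etv4 and Etv5 are transcription factors whose transcripts are often read, with Dusp6 and Spry4, as a measure of ERK pathway output in epithelial tumors.

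Sequences upstream of the RefSeq start sites of 3 of these genes are shown. Dusp1 and Dusp5 are the members whose levels differed between the populations by the test used here, and Dusp6 had the highest mean level. Each run is 150 bases read 5′ to 3′ on the gene's strand, from 200 to 51 bases before the RefSeq start site (GRCm38.p6). The Dusp5 and Dusp6 runs lie before the annotated start of their gene. The Dusp1 run lies inside the annotated span of Dusp1 (26505590 to 26562128), and its overlap with exons was not tested. RefSeq windows were matched for 7 of the 10 members. Capitals mark cAMP response elements (TGACGTCA), the core of that element (TGACG or CGTCA), E-boxes (CACGTG) and CArG boxes, the binding site of serum response factor.
Dusp1, chr17:26508523-26508672, minus strand: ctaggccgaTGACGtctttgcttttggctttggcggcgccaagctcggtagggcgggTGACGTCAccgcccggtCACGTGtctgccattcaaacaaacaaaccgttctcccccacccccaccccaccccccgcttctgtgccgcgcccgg
Dusp5, chr19:53528945-53529094, plus strand: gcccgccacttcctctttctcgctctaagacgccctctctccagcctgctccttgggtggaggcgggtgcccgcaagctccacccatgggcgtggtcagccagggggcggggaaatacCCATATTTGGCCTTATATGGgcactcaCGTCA
Dusp6, chr10:99263031-99263180, plus strand: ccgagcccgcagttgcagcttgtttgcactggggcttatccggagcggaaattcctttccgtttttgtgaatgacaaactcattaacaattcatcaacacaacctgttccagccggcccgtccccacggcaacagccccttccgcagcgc

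Motifs were searched on both strands in the whole window of 250 bases before to 50 bases after each start site, and each share below is that of all 32851 such windows of the RefSeq table. The Dusp1 window held a full cAMP response element at -143 (1.79% of windows), which also contains the core on each strand, a further core at -191 (20.8% of windows) and an E-box at -126 (7.15% of windows). Adjacent CArG boxes lay at -82 and -72 in the Dusp5 window (1.63% of windows held at least 1), followed by a core of the cAMP response element at -55. The Dusp6 window held none of the motifs searched. None of the members' windows held the AP-1 site TGANTCA (7.81% of windows), the ETS site CCGGAAG (8.86%), the Capicua sites TGAATGAA (1.30%) and TGAATGGA (1.21%) or the TATA box TATAAA (13.6%). The median share of G and C was 52.7% over all windows, and 57.3% to 74.0% in the 8 windows of members. The shares of windows given here are therefore not matched for base content. A match is a run of letters and does not show that a factor binds there.

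Library totals ran from 70263372 to 94216786 counts, and 3 counts corresponded to at most 0.0429 CPM (counts scaled to the TMM-adjusted library size), while the lowest value of any member was 9.75 CPM. Libraries of the same replicate resembled each other more than libraries of the same population. The share of counts from mitochondrial genes followed the replicate too, at 3.60% and 3.61% in replicate 2 and between 5.03% and 6.00% in replicates 1 and 3. Epithelial markers had summed levels of 3347 to 5725 CPM in acLDL-low and 3771 to 6154 CPM in acLDL-high libraries, with all 9 tested. Markers of endothelium, macrophages and fibroblasts summed to 1.80 to 3.18, 19.3 to 24.4 and 29.0 to 43.3 CPM over all libraries. Most of the fibroblast sum came from Pdgfra alone (28.1 to 42.8 CPM). Most of the macrophage sum came from Cd14 (7.89 to 14.0 CPM) and Cd68 (6.75 to 10.7 CPM). Counts of 0 in every library were found for the endothelial Emcn, Cldn5 and Erg, the macrophage Adgre1, Msr1 and Tyrobp, and the fibroblast Lum and Thy1.

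Per kilobase of exon, the member with the highest level was Dusp6, with a mean of 86.2 RPKM over the 6 libraries (range 50.3 to 130). It was followed by Dusp5 at 49.0 RPKM, Etv4 at 39.6, Spry2 at 35.8, Dusp4 at 30.5, Dusp1 at 18.5, Etv5 at 14.0, Spred1 at 11.6, Spry1 at 7.38 and Spry4 at 2.94 RPKM. Neighbours in this order overlapped in their range over libraries, except that every Spred1 value (10.5 RPKM or more) was above every Spry1 value (10.2 or less), and every Spry1 value (4.47 or more) was above every Spry4 value (3.76 or less). By mean, the most abundant transcript of the 10 was thus that of a cytoplasmic ERK phosphatase, and the least abundant that of Spry4, an inhibitor acting near the receptor. In replicate 2, however, Dusp5 was above Dusp6 in both libraries (65.2 against 56.8 RPKM in acLDL-low, 67.2 against 50.3 in acLDL-high).

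Between the populations, Dusp1 and Dusp5 rose in acLDL-high cells and the other 8 members did not pass the test. At an adjusted p under 0.05 (edgeR's quasi-likelihood test, replicates blocked), 2 of 10 members were called, where 4.75% of all genes tested were called. Both were higher in acLDL-high cells, where 3.43% of all genes were called and higher. The changes were small: the log2 fold changes of the members ran from -0.15 to 0.28, and their median size, 0.15, compares with 0.07 over all genes. In sorted populations of this kind, more cells that express a gene and more RNA of that gene per cell cannot be told apart.

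**Figure D1:**
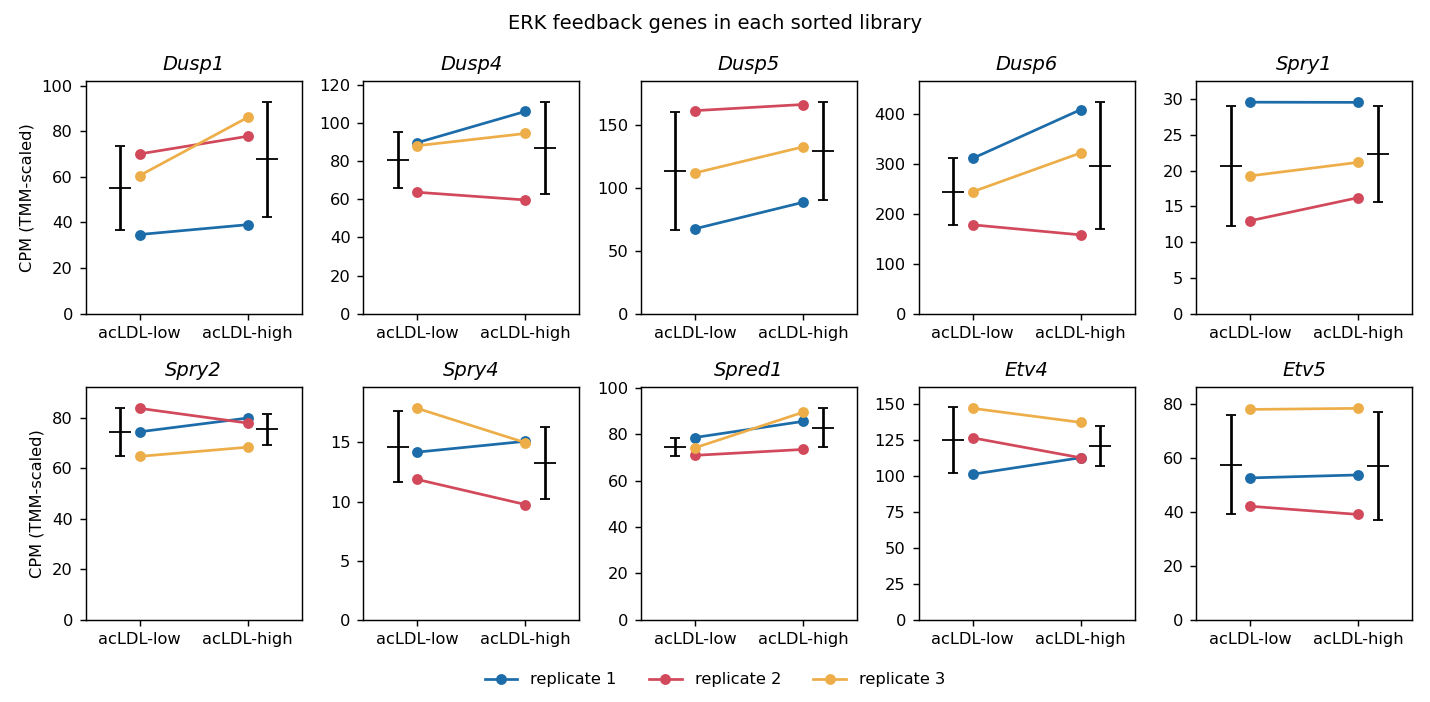
Level of each member (CPM, y axis from 0, a separate scale for each gene) in the acLDL-low and acLDL-high library of each replicate; lines join libraries of one replicate, and bars beside the points give the mean and SD of the 3 libraries. The highest and lowest replicate lie further apart than the populations do, though some replicate colours overlap, as in Dusp1, Spry2 and Spred1. Dusp1, Dusp5 and Spred1 slope upward in all 3 replicates.

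Dusp1 encodes a nuclear phosphatase of ERK, p38 and JNK and is itself an immediate early gene. It was at 34.7, 70.0 and 60.5 CPM in acLDL-low replicates 1, 2 and 3 and at 39.0, 77.8 and 86.0 CPM in the matching acLDL-high libraries. Replicate 1 was low in both populations, so the groups overlapped, but acLDL-high exceeded acLDL-low within each replicate. The differences within replicates were 0.17, 0.15 and 0.51 on the log2 scale, and the fitted log2 fold change was 0.28 (SE 0.06, 95% interval 0.14 to 0.41, edgeR adjusted p = 0.0260), a rise of 21.3%. Replicate 3 carried more of it than the others: without replicate 3 the log2 fold change was 0.16 and the adjusted p 0.242. Neither Dusp1 nor Dusp5 was called in a fit without the replicate block (adjusted p = 1 for both with edgeR). Its annotated exons (chromosome 17, 26505590 to 26562128, minus strand) share 11 bases with Ergic1 on the opposite strand.

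Dusp5, a nuclear phosphatase that prefers ERK, was at 67.4, 161 and 112 CPM in acLDL-low and at 88.5, 166 and 133 CPM in acLDL-high replicates 1, 2 and 3. Here too replicate 1 was lowest in both populations, the groups overlapped, and the acLDL-high library was the higher one in every replicate. The differences were 0.39, 0.04 and 0.25, with a fitted log2 fold change of 0.22 (SE 0.06, 95% interval 0.10 to 0.35, edgeR adjusted p = 0.0418), a rise of 16.8%. The call was lost without replicate 1 (log2 fold change 0.14, adjusted p = 0.149) and without replicate 3 (0.22, adjusted p = 0.257). Dusp5 lies on chromosome 19, 53529109 to 53542431, plus strand, and its exons share 547 bases with the opposite-strand gene AC137853.2, which was not analysed here. Since the strand setting of the counting is not stated, reads of such pairs may not have been separated.

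Dusp6 encodes the cytoplasmic phosphatase that prefers ERK over other MAP kinases. In acLDL-low replicates 1, 2 and 3 it stood at 311, 178 and 244 CPM, and in acLDL-high replicates at 408, 158 and 322 CPM. The acLDL-high library exceeded its partner by nearly the same amount in replicates 1 and 3 (0.39 and 0.40) and was the lower one in replicate 2 (-0.17), so the groups overlapped. The fitted log2 fold change, 0.21 (SE 0.09, 95% interval 0.02 to 0.40), was close to that of Dusp5 but did not pass after adjustment (edgeR adjusted p = 0.198). Without replicate 2 it was 0.39, with an adjusted p of 4.86e-11, and with no filter on low counts it was 0.22, with an adjusted p of 0.0380. It fell to 0.12 both without replicate 1 (adjusted p = 0.448) and without replicate 3 (adjusted p = 0.711), and DESeq2 with the replicate block gave an adjusted p of 0.721. The gene lies on chromosome 10, 99263231 to 99267489, plus strand.

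Dusp4, a nuclear phosphatase of ERK and JNK, followed Dusp6 in sign. Its levels were 89.6, 63.6 and 88.0 CPM in acLDL-low and 106, 59.6 and 94.4 CPM in acLDL-high replicates 1 to 3. The groups overlapped, with the lowest and the highest value both in acLDL-high cells. Differences of 0.24, -0.09 and 0.10 gave a log2 fold change of 0.09 (SE 0.06, 95% interval -0.04 to 0.21, edgeR adjusted p = 0.447), and the value was 0.17 without replicate 2 (adjusted p = 0.0464) but 0.0064 without replicate 1 (adjusted p = 0.975). Dusp4 is on chromosome 8, 34807297 to 34819894, plus strand. Over the 4 phosphatases the median change was 0.32 in replicate 1, -0.03 in replicate 2 and 0.32 in replicate 3.

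**Figure D2:**
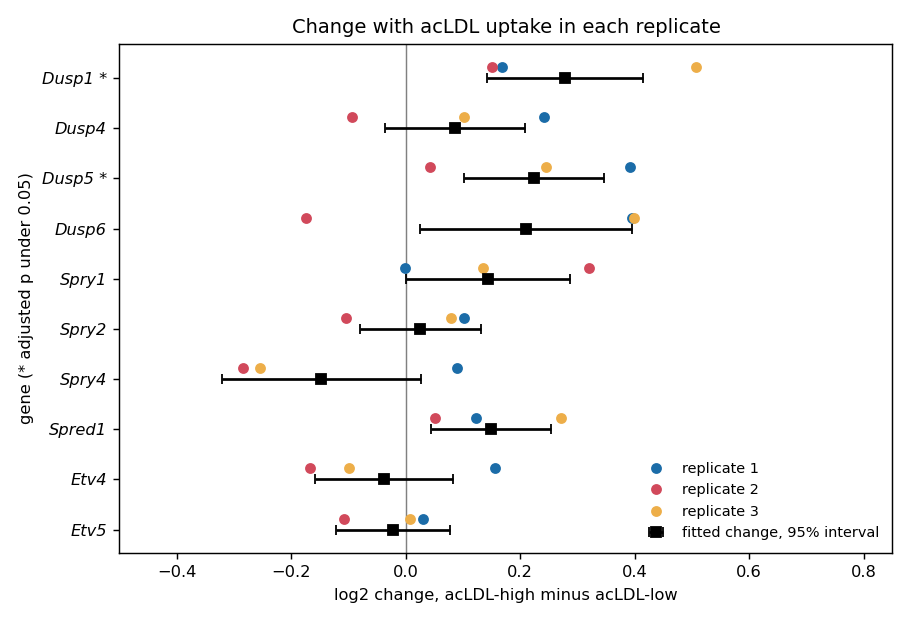
Difference between acLDL-high and acLDL-low cells (x axis, log2 scale) for each member: circles are the 3 replicates, squares the fitted change with its 95% interval, and an asterisk marks an adjusted p under 0.05. Replicate 2 lies left of 0 for 6 genes, among them Dusp4 and Dusp6, while replicate 1 lies right of 0 for 9.

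Among the 4 Sprouty and Spred genes 0 were called, 2 had an unadjusted p under 0.05, as did 19.4% of all genes tested, and their median log2 fold change was 0.08. Spred1, which restrains RAS through neurofibromin, came nearest. It was at 78.7, 71.0 and 74.2 CPM in acLDL-low and at 85.6, 73.5 and 89.6 CPM in acLDL-high replicates 1 to 3. The groups overlapped only through the acLDL-high library of replicate 2, and every replicate was higher in acLDL-high cells, by 0.12, 0.05 and 0.27. The fitted value was 0.15 (SE 0.05, 95% interval 0.04 to 0.25, edgeR adjusted p = 0.113), which passed without replicate 2 (0.19, adjusted p = 0.0169) and fell to 0.09 without replicate 3 (adjusted p = 0.521). Spred1 is on chromosome 2, 117121374 to 117182279, plus strand.

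Spry1, an inhibitor of receptor tyrosine kinase signalling, was at 29.6, 13.0 and 19.3 CPM in acLDL-low and 29.5, 16.2 and 21.1 CPM in acLDL-high replicates 1 to 3. Its level was nearly the same in both libraries of replicate 1, and the acLDL-high library was higher by 0.32 in replicate 2 and 0.14 in replicate 3, whereas Dusp6 was lower in acLDL-high cells in replicate 2 only. The log2 fold change was 0.14 (SE 0.07, edgeR adjusted p = 0.257), or 0.06 without replicate 2 (adjusted p = 0.731) and 0.23 without replicate 1 (adjusted p = 0.117). Spry1 (chromosome 3, 37639947 to 37644598, plus strand) shares 710 exon bases with Gm42922 on the opposite strand, which had only 4 to 26 counts per library.

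Spry2, which interferes with growth factor signalling near the receptor, was at 74.4, 83.6 and 64.6 CPM in acLDL-low and 79.8, 77.8 and 68.3 CPM in acLDL-high replicates 1 to 3. The acLDL-high values all lay inside the range of the acLDL-low values. Its log2 fold change was 0.03 (SE 0.05, 95% interval -0.08 to 0.13, edgeR adjusted p = 0.834). The gene lies on chromosome 14, 105891947 to 105896819, minus strand. Spry4, on chromosome 18, 38586247 to 38601415, minus strand, was at 14.2, 11.9 and 17.9 CPM in acLDL-low and 15.1, 9.75 and 15.0 CPM in acLDL-high replicates. The acLDL-high library was the lower one in replicates 2 and 3 (-0.28 and -0.26) and the higher one in replicate 1 (0.09), with a fitted value of -0.15 (SE 0.08, 95% interval -0.32 to 0.03, edgeR adjusted p = 0.342). It had the most negative fitted change of the 10, which was -0.27 without replicate 1 (adjusted p = 0.0726) and -0.09 without replicate 2 or 3 (adjusted p = 0.652 and 0.795).

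Etv4 and Etv5, the transcription factors, had log2 fold changes of -0.04 and -0.02 (SE 0.06 and 0.05, edgeR adjusted p = 0.774 and 0.848). Etv4 (chromosome 11, 101769742 to 101785371, minus strand) was at 101, 126 and 147 CPM in acLDL-low and 113, 113 and 137 CPM in acLDL-high replicates 1 to 3. The acLDL-high library was the higher one in replicate 1 and the lower one in replicates 2 and 3. Etv5 (chromosome 16, 22381309 to 22439719, minus strand) was at 52.6, 42.1 and 78.0 CPM in acLDL-low and 53.7, 39.1 and 78.4 CPM in acLDL-high replicates. Its populations differed by at most 0.11 on the log2 scale within a replicate. The 95% intervals were -0.16 to 0.08 for Etv4 and -0.12 to 0.08 for Etv5, so changes of the size fitted for Dusp1 lay outside both.

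Counted by replicate, 9 of 10 members were higher in acLDL-high cells in replicate 1 (54.8% of all genes), 4 in replicate 2 (47.4%) and 8 in replicate 3 (49.8%). The members' median difference was 0.14, -0.10 and 0.12 in replicates 1, 2 and 3. Dusp1, Dusp5 and Spred1 were higher in all 3 replicates, as were 20.9% of all genes, and 0 members were lower in all 3, against 19.4% of all genes. For 0 members did the acLDL-high and acLDL-low values separate without overlap, which 2.86% of all genes did. With a replicate left out, 1 member was called without replicate 1 (5.25% of all genes), 5 without replicate 2 (6.96%) and 0 without replicate 3 (1.01%), where 2 had an unadjusted p under 0.05 (13.1% of all genes). The 5 called without replicate 2 were the 4 phosphatases and Spred1, all higher in acLDL-high cells. Over all 10 alternative settings the adjusted p reached 1 for each member, in the fits without a replicate block. Its lowest values were 2.03e-06 for Dusp1, 3.12e-06 for Dusp5, 4.86e-11 for Dusp6, 0.0464 for Dusp4 and 0.0169 for Spred1, each without replicate 2. That fit has 2 replicates, so these p-values lean on variance pooled over genes and do not measure the spread of each gene.

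For each of the 10 members, the spread over the 3 occasions exceeded the fitted change between populations. The share of all genes for which this held was not counted, and a range of 3 means is set here against a single difference. All 10 members differed among the 3 occasions at an adjusted p under 0.05, but so did 78.0% of all genes. The highest and lowest occasion means of a member, each over its 2 libraries, were a median of 0.80 apart on the log2 scale, where the median over all genes was 0.45. Over all genes, too, this median was larger than that of the size of the population change, 0.07. The spread over occasions (0.18) came closest to the population change (0.15) in Spred1.

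Dusp6 and Dusp5 ran in opposite order over the occasions. The mean log2 CPM of Dusp6 was 8.48, 7.39 and 8.13 on occasions 1, 2 and 3, a range of 1.09 (edgeR adjusted p = 3.84e-06 for the 3 occasions together). For Dusp5 it was 6.27, 7.36 and 6.93, a range of 1.08 (adjusted p = 9.57e-08). Dusp6 was thus highest where Dusp5 was lowest and lowest where Dusp5 was highest, in both populations. Dusp1 was low on occasion 1 only, at a log2 CPM of 5.20 against 6.21 and 6.17 (range 1.00, adjusted p = 2.00e-07), and its levels on occasions 2 and 3 did not pass the test (adjusted p = 0.792).

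Spry1 ordered the occasions as Dusp6 did, at a log2 CPM of 4.89, 3.86 and 4.34 (range 1.02, edgeR adjusted p = 5.40e-07). Dusp4 also had its low value on occasion 2, at 5.95 against 6.61 and 6.51 (adjusted p = 4.44e-06), while occasions 1 and 3 did not pass the test (adjusted p = 0.144). Etv5 was lowest on occasion 2 and highest on occasion 3, at 5.73, 5.34 and 6.29 (range 0.95, adjusted p = 4.26e-08). The remaining members moved less: Spry4 by 0.60, Etv4 by 0.41, Spry2 by 0.28 and Spred1 by 0.18 (adjusted p = 0.000310, 0.000396, 0.00221 and 0.0205).

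In all, 6 members were lowest on occasion 2, the occasion with the low mitochondrial share, against 39.9% of all genes, and whether these are related was not tested. Taken occasion by occasion, 8 members differed between occasions 1 and 2 (63.9% of all genes), 7 between occasions 1 and 3 (48.4%) and 9 between occasions 2 and 3 (66.7%). The labels give no further description of the occasions, so culture, staining, sorting and library preparation cannot be told apart as the source of these differences.

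**Figure D3:**
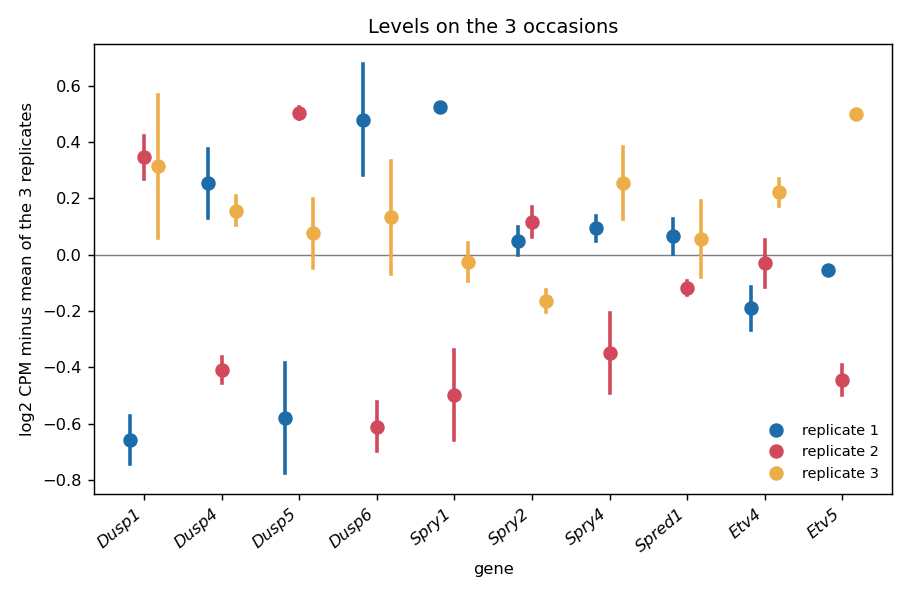
Mean log2 CPM of each member on each occasion after subtracting the mean of the 3 occasions (y axis); circles are means of the acLDL-low and acLDL-high libraries and vertical lines span those 2 libraries. Dusp1, Dusp5 and Etv4 are lowest in replicate 1, while Dusp4, Dusp6, Spry1, Spry4, Spred1 and Etv5 are lowest in replicate 2.

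The genes whose profile over the 6 libraries lay closest to that of Dusp6 were, among 10537 genes, Ifi202b, Jak2, Serinc3, Zc3h12a and Samd14. The measure was the root-mean-square difference of log2 CPM after centring each gene, which was 0.12, 0.12, 0.12, 0.13 and 0.13 for these genes. Ifi202b is an interferon-inducible gene, Jak2 a kinase of cytokine receptors and Zc3h12a an RNase that degrades inflammatory transcripts. Of the other members, Dusp4 (0.20, rank 93) and Spry1 (0.23, rank 194) were closest to Dusp6, and Dusp1 (0.87, rank 10187) and Dusp5 (0.89, rank 10232) were among the farthest of all genes ranked. Because the 6 points are 3 occasions with 2 libraries each, this likeness mostly compares occasions.

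The rest of the pathway was read from lists by function. These lists were chosen with earlier results of these data known, so where calls fell among them is a description only. Of 7 other MAP kinase phosphatases 0 were called by edgeR (4.75% of all genes) and 2 had an unadjusted p under 0.05 (19.4% of all genes). Such counts below are also read against these shares. The median log2 fold change of the 7 was 0.06, with values from -0.16 (Dusp7) to 0.15 (Dusp14). Spred2, Spred3 and Etv1, the tested relatives of the Sprouty, Spred and PEA3 members, had values of 0.06, -0.10 and 0.13. Of these 0 were called and 1 had an unadjusted p under 0.05, and Spred3 shares 202 exon bases with Ggn on the opposite strand. Among 15 adaptors and regulators of RAS 0 were called (median 0.01), and likewise 0 of the 9 kinases and partners of the RAF, MEK and ERK cascade, whose values all lay between -0.06 and 0.05. At an unadjusted p under 0.05, 0 genes of either list passed.

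Among 8 tested receptors upstream of ERK, 1 was called, while Fgfr4 fell below the filter on low counts. Fgfr2, a receptor of fibroblast growth factors, averaged 141 ± 62.2 CPM in the acLDL-low group and 164 ± 75.6 CPM in the other (SD, n = 3). Its log2 fold change was 0.22 (edgeR adjusted p = 0.0142), positive in every replicate (0.27, 0.26 and 0.13), and 314 of its exon bases overlap Ctbp2 on the same strand. Of 9 nuclear effectors and repressors 0 were called and 3 had an unadjusted p under 0.05. The nearest was Srf, serum response factor itself, at 0.24 (edgeR adjusted p = 0.0518), with replicate differences of 0.36, -0.01 and 0.38. Srf was named after its values were seen. Uncalled genes near the threshold in other lists, falls among them, are not named.

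Of 11 other genes known to be induced by ERK, 5 were called and all 5 were higher in acLDL-high cells (3.43% of all genes). An unadjusted p under 0.05 was found for 8. All 11 had a positive fitted value, with a median of 0.25 against 0.00 over all genes. Lif, a cytokine of the IL-6 family, rose most of these, from 398 ± 31.9 to 581 ± 95.7 CPM (SD, n = 3). Its log2 fold change was 0.53 (edgeR adjusted p = 0.000394). Ier3 and Phlda1 rose by 0.31 each (adjusted p = 0.00399 and 0.00809), and Hbegf, an EGF receptor ligand, by 0.25 (adjusted p = 0.0407). Phlda1 shares 727 exon bases with Gm28592 on the opposite strand. The fifth, Areg, another EGF receptor ligand, was named after its values were seen: it rose by 0.34 (adjusted p = 0.0449), with 0.66 in replicate 1, -0.01 in replicate 2 and 0.37 in replicate 3. The median of this list was 0.39, -0.01 and 0.19 in replicates 1, 2 and 3, so its lowest value fell in replicate 2, as for the members.

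Immediate early genes, which respond to serum within the hour, did not move one way. Of 15 tested, 5 were called higher (3.43% of all genes) and 1 lower, 10 had an unadjusted p under 0.05, and the median was 0.18. Nr4a1, an orphan nuclear receptor, rose by 0.36 (edgeR adjusted p = 0.000486), Egr3 by 0.46 (adjusted p = 0.00464) and Junb by 0.25 (adjusted p = 0.0170). Junb shares 173 exon bases with Prdx2 on the opposite strand. Fos and Klf4, named after their values were seen, rose by 0.39 and 0.19 (adjusted p = 0.0223 and 0.0452). Myc, a driver of growth and ribosome production, fell by 0.33 (adjusted p = 0.00115) and was lower in all 3 replicates.

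Cell cycle genes moved with the same comparison. Of 20 genes of G2 and M phase, 13 were called, all higher in acLDL-high cells (3.43% of all genes). The median log2 fold change was 0.28, and 18 had an unadjusted p under 0.05. The 4 with the smallest p were Ube2c (0.56), Cdk1 (0.43), Top2a (0.45) and Ccnb1 (0.49), with edgeR adjusted p of 0.000119, 0.000155, 0.000196 and 0.000212. Ube2c shares 592 exon bases with Tnnc2 on the opposite strand. Unlike the members, this list had its highest median in replicate 2 (0.40, against 0.16 and 0.27 in replicates 1 and 3). The epithelial markers Cldn4 and Cldn7, of 9 tested, rose by 0.53 and 0.30 (adjusted p = 0.000832 and 0.0102), and Cd14 was the one macrophage marker called, of 5 tested, at 0.32. For endothelial and fibroblast markers 0 of 4 and 0 of 2 tested were called, and 1 and 0 had an unadjusted p under 0.05. At that unadjusted level, 5 of 9 epithelial and 2 of 5 macrophage markers passed. The part of these genes in the changes of Dusp1 and Dusp5 was not tested.

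**Figure D4:**
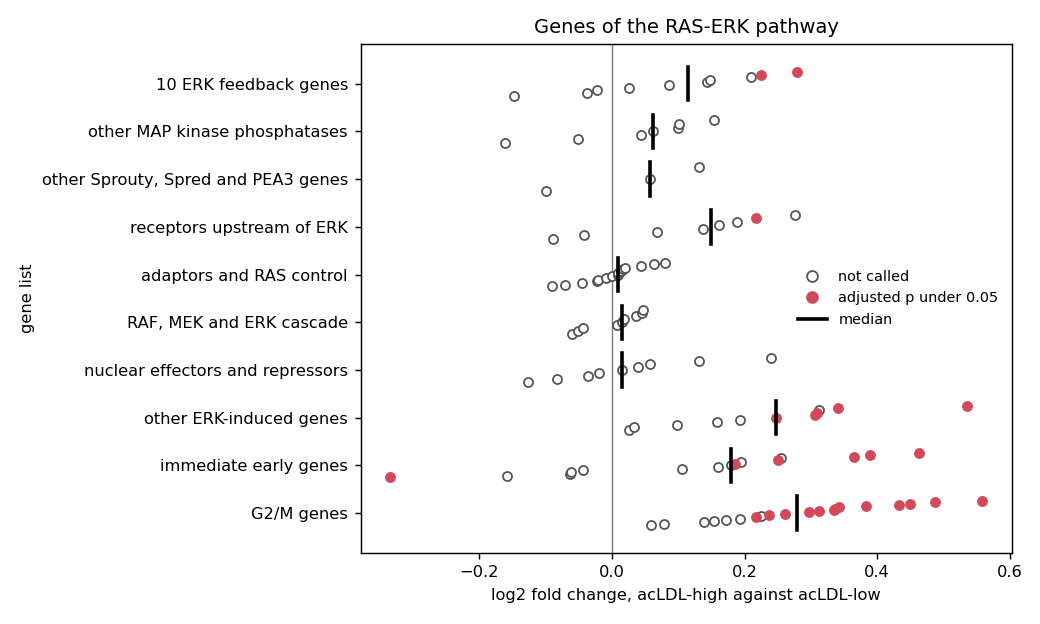
Log2 fold change of acLDL-high against acLDL-low cells (x axis) for every tested gene of each list (y axis): filled circles have an adjusted p under 0.05, open circles do not, bars mark the list's median, and the vertical scatter within a list only separates the circles. Lists of the cascade itself cluster at 0, while filled circles lie mostly among other ERK-induced, immediate early and G2/M genes. The lists were chosen with earlier results of these data known.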

How the data were processed

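RNA-seq libraries were stranded and made from mRNA (500 ng of total RNA). Per the labels and the study's methods, reads were aligned to mm10 with STAR (version 2.5.2a) and counted with featureCounts (version 1.4.3-p1), and the authors deposited raw counts for 53379 gene IDs. The annotation release and strand setting are not given in the sources used here. Between 70.9% and 72.3% of counts from 1 to 20 were even, against 48.6% to 51.1% of counts over 1000, a pattern that counting both mates of a read pair gives, so a count may be less than a fragment. The floor of 3 counts covers counting error only, while the intervals of fold changes come from the fit and include the spread between replicates. That spread is in part pooled over genes, most so with a replicate left out. The authors' own comparison (DESeq2 version 1.20.0: mean level, log2 fold change, standard error, statistic and p-values) served only to list protein-coding genes and symbols.

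Counts were tested with edgeR 4.0.16 (R 4.3.3, limma 3.58.1): filterByExpr, TMM, and the quasi-likelihood test, blocked on replicate number, which the study's methods also included. P-values were adjusted by Benjamini-Hochberg over all 12572 genes, with a threshold of 0.05. A second test in the same fit compared the 3 occasions, and the fit without a replicate compared the occasions that were left. The SE is the log2 fold change over the root of F. CPM is TMM-scaled, replicate differences use log2 CPM with a prior count of 2, and RPKM divides CPM by the exon length of GENCODE M21, from which positions on GRCm38 were taken. The test was checked on simulated counts. Replicate numbers come from the labels, and the series describes repeats on 3 separate occasions; same-numbered libraries departed from their population means together (correlation over genes 0.795, 0.846 and 0.799, against -0.557 to -0.0882 for different numbers). No library repeated another (chi-square per degree of freedom of 21.3 or more).

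The 10 members and the lists were chosen with earlier results of these data known. Named genes are the members, up to 4 called genes per list by smallest p, called markers, and the 5 genes of average log2 CPM of at least 1 closest to Dusp6. Other genes were named outside that rule. Among them are the called Areg, Fos and Klf4 and the uncalled Srf, Dusp7, Dusp14, Spred2, Spred3 and Etv1. Alternatives were a fit without the block, DESeq2 size factors, DESeq2 1.42.0 with and without the block, no filter, a minimum of 10 counts per library, every gene of the count table, and leaving out each replicate. The value of 1 pathway gene is not reported here.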

Additional observations from a re-analysis of the deposited data

How the results depend on the processing

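The replicate block decided every call between the populations. Without the replicate block 0 genes and 0 members were called with edgeR (45 genes and 0 members at an unadjusted p under 0.05), and 0 and 0 with DESeq2 (77 genes and 0 members). The log2 fold changes of Dusp1 and Dusp5 were then 0.30 and 0.19. With the block, DESeq2 called 470 of 15973 genes fitted and edgeR with DESeq2 size factors 663 of 12572, each with 2 members. No filter on low counts called 932 of 15973 genes and 3 members. Leaving out one replicate called 126 to 869 genes and 0 to 5 members between the populations, and 6034 to 8213 genes and 7 to 9 members between the occasions. With one replicate left out, 3 fitted changes near 0 turned sign: Spry2 ranged from -0.012 to 0.089, Etv4 from -0.13 to 0.025 and Etv5 from -0.047 to 0.017. Of the members' log2 fold changes under 10 alternatives, 86 of 100 kept their direction and side of the threshold, 7 lost the call and 4 gained it. The 7 lost calls all belonged to Dusp1 or Dusp5, the only members called in the main fit. Members not called there had no call to lose. The causes of these shifts were not tested. The lowest level of a member, 9.75 CPM, lay above the 0.0429 CPM to which 3 counts came at most.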
